A study of Mus musculus with 2 samples.

Results

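The SLC25 genes encode the mitochondrial carriers, a family of membrane proteins that exchange metabolites, nucleotides, cofactors and ions across the inner mitochondrial membrane. Brown adipose tissue is the heat-producing fat depot. Its mitochondria take up fatty acids bound to carnitine and export citrate for fat synthesis through carriers of this family. Carriers of this family also serve the malate-aspartate shuttle, a route that brings in reducing power from glycolysis. The members described here are the genes with a symbol of Slc25a and a number, other than the adenine nucleotide translocases Slc25a4 and Slc25a5 and the Ucp genes, that reached 1 FPKM in D3BKO or D3BWT, the libraries of the 2 genotypes. FPKM divides the fragments of a gene by its transcript length and by the size of its library, so levels of different genes can be set side by side. Of 45 such genes in the RefSeq gene table, 41 were listed in either library and 35 of these reached 1 FPKM, out of 16174 genes listed in all.

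There were 2 RNA sequencing libraries of brown adipose tissue from female C57BL/6 mice, 1 per genotype. D3BKO mice carried floxed D3B alleles (fl/fl) and a hemizygous UCP1-Cre, a recombinase under the promoter of the brown adipocyte gene Ucp1. D3BWT mice carried the same floxed alleles, and their label names no Cre. Both groups were 45 weeks old and had eaten chow throughout. D3B is read as Dnmt3b, a DNA methyltransferase that adds methyl groups at CpG sites, from knowledge of the study. Effects of the Cre and of D3B loss cannot be told apart here, nor can genotype and sequencing lane, which was lane 1 for D3BKO and lane 2 for D3BWT. The labels do not say how many mice went into a library. D3BKO held 10068359 expected counts and D3BWT 9666528. With 1 library per genotype there is no spread between mice and no test. Each interval after a ratio is a 95% counting interval, which covers counting error only and compares these libraries, not the genotypes. Dnmt3b was at 0.18 FPKM in D3BKO and 0.39 FPKM in D3BWT, from 7 and 15 counts, with a ratio of 0.462 (0.155 to 1.17), so that its loss was not detectable at this depth. The brown adipocyte marker Ucp1 was abundant in both libraries, at 4271 FPKM in D3BKO and 4987 FPKM in D3BWT.

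The carriers as a family differed little between the libraries. Their summed level was 2376 FPKM in D3BKO and 2487 FPKM in D3BWT, a ratio of 0.955, and the ratio of their summed counts per library was 0.947 (0.935 to 0.958). Brown adipocyte markers had a summed ratio of 0.781, and their part in the family's level was not tested. A member was counted as higher or lower when its ratio on the (FPKM + 1) scale was at least 1.5-fold and its counting interval excluded 1. Of the 35 members 3 were higher, namely Slc25a10, Slc25a24 and Slc25a45, where 4.35% of all 11746 genes at this level were higher. The lower member was Slc25a34, where 3.41% of all genes were lower. When the FPKM totals of the libraries were made equal, those shares of all genes were 5.64% higher and 2.50% lower, and among the members 4 were higher, with Slc25a1 added, and 0 lower. At a log2 line of 0.32 there were 5 higher and 4 lower members, against 10.3% and 11.7% of all genes. At 2-fold there were 0 of either, against 0.902% and 0.673% of all genes. Whatever the size of the difference, the counting interval lay above 1 for 8 members, against 18.1% of all genes, and below 1 for 11, against 22.4%. It included 1 for the other 16. On the log2 scale of (FPKM + 1), 21 of the 35 members lay below 0, against 53.8% of all genes, and the median was -0.09, against -0.03 over all genes. The numbers of higher and lower members are too small to set the family apart from all genes. The log2 ratios within the family ran from -0.65 for Slc25a34 to 0.82 for Slc25a10. Over all genes the 5th percentile was -0.52 and the 95th was 0.56.

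**Figure D1:**
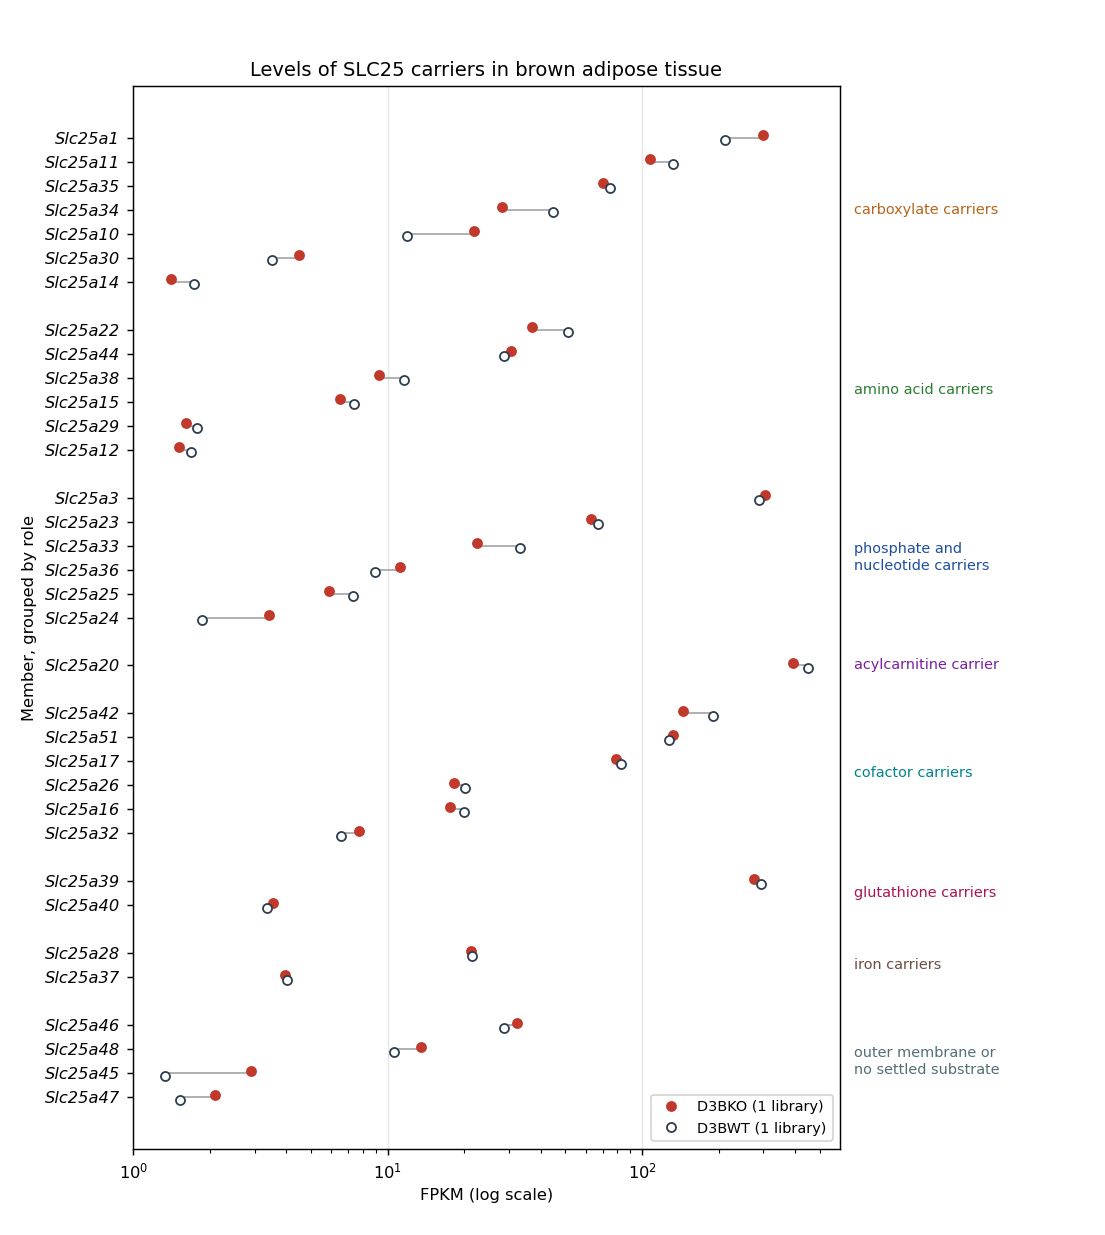
Level of each of 34 carriers in FPKM on a log axis, 1 point per library, with D3BKO as filled and D3BWT as open circles, grouped by role. The level of Slc25a20 is at the right edge in both libraries (391.9 FPKM in D3BKO and 448 FPKM in D3BWT), and the gap between the circles is widest for Slc25a45, Slc25a24, Slc25a10 and Slc25a34.

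Because the targeted enzyme acts on CpG sites, the promoters of the members past the 1.5-fold rule are shown together with that of Slc25a1, which came nearest to it among members with a mean of 50 FPKM or more. Each is the 250 bases before the gene's start in RefSeq (build GRCm38.p6), 5′ to 3′ on the gene's strand, with CpG sites in capitals. The files measure no methylation.
Slc25a10: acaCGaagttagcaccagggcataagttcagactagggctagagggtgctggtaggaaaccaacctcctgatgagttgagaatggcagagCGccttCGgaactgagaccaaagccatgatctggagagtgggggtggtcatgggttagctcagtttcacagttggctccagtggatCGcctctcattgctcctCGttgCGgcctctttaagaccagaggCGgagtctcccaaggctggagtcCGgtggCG
Slc25a45: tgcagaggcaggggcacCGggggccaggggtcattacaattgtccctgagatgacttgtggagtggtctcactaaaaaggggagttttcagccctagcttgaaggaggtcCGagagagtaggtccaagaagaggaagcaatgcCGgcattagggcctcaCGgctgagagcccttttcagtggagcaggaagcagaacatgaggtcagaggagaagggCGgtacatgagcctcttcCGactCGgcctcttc
Slc25a24: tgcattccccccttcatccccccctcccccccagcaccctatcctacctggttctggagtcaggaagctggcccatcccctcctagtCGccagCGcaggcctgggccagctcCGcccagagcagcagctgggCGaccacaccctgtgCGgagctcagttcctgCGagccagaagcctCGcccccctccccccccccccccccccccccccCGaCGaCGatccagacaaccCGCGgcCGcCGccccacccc
Slc25a34: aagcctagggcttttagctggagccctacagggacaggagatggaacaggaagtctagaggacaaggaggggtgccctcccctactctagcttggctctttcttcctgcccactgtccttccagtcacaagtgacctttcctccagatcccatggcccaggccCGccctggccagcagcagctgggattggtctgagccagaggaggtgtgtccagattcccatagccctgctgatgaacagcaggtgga
Slc25a1: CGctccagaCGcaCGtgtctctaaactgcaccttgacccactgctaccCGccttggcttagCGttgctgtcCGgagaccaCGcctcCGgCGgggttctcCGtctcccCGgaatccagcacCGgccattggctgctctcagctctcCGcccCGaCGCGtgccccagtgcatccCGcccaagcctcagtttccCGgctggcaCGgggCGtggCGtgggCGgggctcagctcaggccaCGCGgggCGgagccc
The Slc25a10 promoter lies at chr11:120491587-120491836 on the plus strand and holds 9 CpG sites. The Slc25a45 promoter at chr19:5877572-5877821 (plus strand) holds 7 and the Slc25a24 promoter at chr3:109122899-109123148 (plus strand) holds 14. The Slc25a34 promoter at chr4:141623835-141624084 on the minus strand holds 1 CpG site, the fewest among the members with a sequence. The Slc25a1 promoter at chr16:17928220-17928469 on the minus strand holds 25. Promoter sequences were matched for 27 of the 35 members, whose CpG number ranged from 1 to 40 with a median of 14, against a median of 16 over 9340 genes. The 15 members at or above the median number of CpG sites had -0.06 as the median of their log2 ratios, and the 12 below it had -0.13. The same split was not made over all genes, and a link between CpG number and the ratios was not tested.

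Short motifs were searched on both strands in the same windows. The letters AAGGTCA, the core bound by estrogen-related receptors, were found in 1 of the 27 members (3.70%), Slc25a34, and in 2.92% of all 9340 promoters. The E-box CACGTG was in 4 members (14.8%), Slc25a1, Slc25a14, Slc25a33 and Slc25a36, and in 8.65% of all promoters. The CCAAT box CCAAT was in 13 members (48.1%) and in 36.4% of all promoters. The GC box GGGCGG was in 21 members (77.8%) and in 60.2% of all promoters. The E-box and the GC box hold CpG letters themselves, so they follow the CpG number in part.

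The levels of single carriers differed far more than the libraries did. In D3BKO the described members ranged from 1.41 to 391.9 FPKM with a median of 21.4 FPKM, and in D3BWT from 1.33 to 448 FPKM with a median of 20.1 FPKM. All genes at this level had medians of 8.30 FPKM in D3BKO and 8.39 FPKM in D3BWT. The 8 members at 100 FPKM or more in each library carried 78.1% of the family's summed FPKM in D3BKO and 77.6% in D3BWT. They included Slc25a20, Slc25a3, Slc25a1, Slc25a39, Slc25a42, Slc25a51 and Slc25a11, from high to low in D3BKO. Slc25a1 stood at rank 3 in D3BKO and rank 5 in D3BWT, while Slc25a20 was first in both. At a mean of 50 FPKM or more, where counting error is small, 8 of 11 members had a log2 ratio below 0, against 65.2% of all genes this abundant. In the same class 6 of 11 members had an interval below 1, against 47.6% of those genes, and 2 of 11 had one above 1, against 22.0%. The median log2 ratio of these 11 members was -0.09, against -0.08 over all genes this abundant.

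The carboxylate carriers held a member past the 1.5-fold rule in each direction, Slc25a10 and Slc25a34. Slc25a1 exports citrate to the cytosol, where it is split into acetyl-CoA for fatty acid synthesis. It was at 300.1 FPKM in D3BKO and 212 FPKM in D3BWT, with a ratio of 1.42 (1.35 to 1.48) just under the 1.5-fold line. It passed that line with equal FPKM totals (log2 ratio 0.59) and with the trends over length and GC content removed (0.60). Slc25a10, the dicarboxylate carrier, which exchanges malate and succinate for phosphate and is known to be abundant in white fat, was at 21.8 FPKM in D3BKO and 11.9 FPKM in D3BWT. Its ratio of FPKM was 1.83 (1.63 to 2.05). On the log2 scale of (FPKM + 1) it came first in the family with 0.82, but with a pseudocount of 0.1 Slc25a45 came first, with 1.07 against 0.87 for Slc25a10, and with CPM the log2 ratios were 0.87 for Slc25a45 and 0.86 for Slc25a10. White adipocyte markers summed to 972 FPKM in D3BKO and 554 FPKM in D3BWT, and their part in the Slc25a10 difference was not tested. Slc25a11 exchanges oxoglutarate for malate in the malate-aspartate shuttle, and it went the other way, with 107 FPKM in D3BKO, 132 FPKM in D3BWT and a ratio of 0.812 (0.764 to 0.862). Rnf167, on the other strand, overlaps 8.92% of the exon bases of Slc25a11. Gm11788, also on the other strand, overlaps 6.60% of those of Slc25a10. Slc25a10 made up 16.8% of the summed FPKM of Slc25a10 and Slc25a11 in D3BKO and 8.24% in D3BWT.

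Slc25a34 and Slc25a35 are close relatives of the oxaloacetate carrier of yeast, and their substrates in mice are not settled. Slc25a34 was at 28.2 FPKM in D3BKO and 44.8 FPKM in D3BWT, a ratio of 0.629 (0.572 to 0.690). It no longer met the 1.5-fold rule after both libraries were given the same FPKM total, where its log2 ratio was -0.56, nor once trends over transcript length and GC content were taken out, where it was -0.58. Its relative Slc25a35 had 70.25 FPKM in D3BKO and 75.02 FPKM in D3BWT, with a ratio of 0.936 (0.865 to 1.012), so that no difference was detectable. Exons of Slc25a35 overlap those of Rangrf on the other strand over 31.3% of their bases, and the libraries are not stated to keep strand. Rangrf was at 7.47 FPKM in D3BKO and 10.8 FPKM in D3BWT, well under Slc25a35. Slc25a30 and Slc25a14, relatives of the uncoupling proteins, were low, at 4.50 and 1.41 FPKM in D3BKO against 3.50 and 1.74 FPKM in D3BWT, and both intervals included 1.

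The cytosolic enzymes that work beside the citrate carrier were higher, a difference already known from these libraries and so no independent support. Of 6 genes in the list of citrate export, 4 met the 1.5-fold rule in the higher direction and 0 in the lower, against 4.35% and 3.41% of all genes. Their median log2 ratio was 0.82. Acly, which splits the exported citrate, had 413 FPKM in D3BKO and 222 FPKM in D3BWT, a ratio of 1.86 (1.81 to 1.91), and the malic enzyme Me1 had a ratio of 1.71 (1.64 to 1.78). Cs, the mitochondrial enzyme that makes citrate, had 1002 FPKM in D3BKO and 1070.5 FPKM in D3BWT, a ratio of 0.936 (0.920 to 0.951). Slc25a1 therefore lay between its cytosolic and its mitochondrial partners in size of difference.

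**Figure D2:**
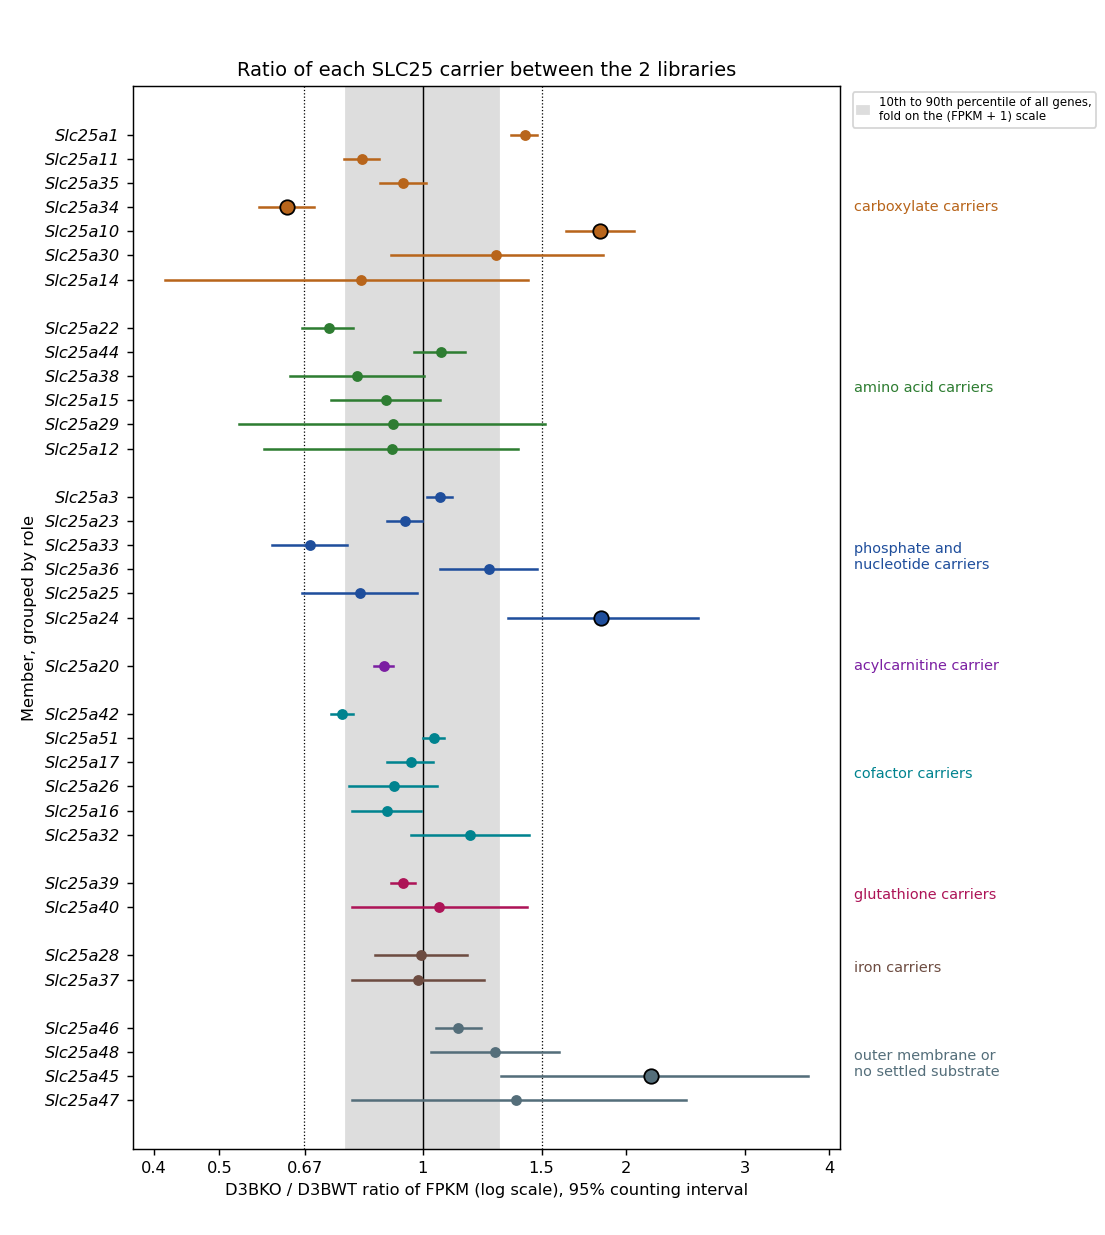
Ratio of FPKM in D3BKO to D3BWT for each of 34 carriers on a log axis, with 95% counting intervals, coloured and grouped by role. Large outlined points mark the 4 members past the 1.5-fold rule (Slc25a10, Slc25a24, Slc25a45 and Slc25a34), dotted lines mark 1.5-fold, and the grey band spans the 10th to 90th percentile of all genes, 0.770 to 1.30 on the (FPKM + 1) scale.

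Slc25a20, the carnitine-acylcarnitine carrier that admits fatty acids to the site of beta-oxidation, was the most abundant member. It was at 391.9 FPKM in D3BKO and 448 FPKM in D3BWT, a ratio of 0.875 (0.846 to 0.903). This difference is larger than counting error and well inside 1.5-fold. The other genes of the carnitine shuttle were mixed, with 3 of 5 below 0, against 53.8% of all genes. None was past the 1.5-fold rule, where 4.35% of all genes were higher and 3.41% lower. Cpt1a differed most, upward, with 9.79 FPKM in D3BKO and 6.68 FPKM in D3BWT, a ratio of 1.47 (1.26 to 1.71). Cpt1b, the muscle and brown fat enzyme that forms acylcarnitine, had a ratio of 0.819 (0.799 to 0.839), although some of its reads were divided with other genes. Cpt2, which acts just after the carrier, had 394 FPKM in D3BKO and 391 FPKM in D3BWT, a ratio of 1.008 (0.978 to 1.04).

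Among the carriers of cofactors 5 of 7 members had log2 ratios below 0, against 53.8% of all genes, and none met the 1.5-fold rule. Slc25a42 imports coenzyme A and had 145 FPKM in D3BKO and 190.4 FPKM in D3BWT, a ratio of 0.760 (0.730 to 0.789). Its interval lay below 1. Slc25a51, the NAD carrier, had 133 FPKM in D3BKO and 128 FPKM in D3BWT, with an interval of 0.9998 to 1.08 that just included 1. The counts of Slc25a42 and Slc25a51 were not whole in every library, so some of their reads were divided with other genes.

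The remaining cofactor carriers were less abundant. Slc25a17, which sits in the peroxisome membrane and carries coenzyme A and related nucleotides, had 79.3 FPKM in D3BKO and 82.7 FPKM in D3BWT. Slc25a26, the carrier of the methyl donor S-adenosylmethionine, had 18.2 FPKM in D3BKO and 20.1 FPKM in D3BWT, a ratio of 0.905 (0.779 to 1.05). Slc25a32, linked to folate and FAD import, had 7.71 FPKM in D3BKO and 6.56 FPKM in D3BWT. The intervals of these 3 members included 1. Slc25a16, tied to coenzyme A in mitochondria, had a ratio of 0.885 (0.786 to 0.995), from 17.6 FPKM in D3BKO and 19.9 FPKM in D3BWT, and its interval ended just below 1.

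Among the phosphate and nucleotide carriers 3 of 6 lay above 0 and 3 below, where 53.8% of all genes lay below. With the library totals used here every interval excluded 1. Over all genes 18.1% had an interval above 1 and 22.4% had one below. Slc25a3 brings in the phosphate that ATP synthase uses. It had 305 FPKM in D3BKO and 288 FPKM in D3BWT, a ratio of 1.06 (1.014 to 1.10). The pyrimidine nucleotide carriers Slc25a33 and Slc25a36 went opposite ways. Slc25a33 had 22.5 FPKM in D3BKO and 33.1 FPKM in D3BWT, a ratio of 0.681 (0.599 to 0.773). Gm13068, on the other strand, overlaps 14.9% of the exon bases of Slc25a33. Slc25a36 had 11.2 FPKM in D3BKO and 8.95 FPKM in D3BWT, a ratio of 1.251 (1.06 to 1.48). Slc25a36 thus made up 33.2% of their summed FPKM in D3BKO and 21.3% in D3BWT, while Slc25a33 stayed the more abundant of the pair in both libraries.

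The calcium-regulated carriers of ATP-magnesium and phosphate differed in the same unequal way. Slc25a23, the main one, had 63.0 FPKM in D3BKO and 66.95 FPKM in D3BWT, a ratio of 0.941 (0.885 to 0.999). With equal FPKM totals its log2 ratio was 0.0003, in place of -0.09. Slc25a25 had 5.88 FPKM in D3BKO and 7.29 FPKM in D3BWT, a ratio of 0.807 (0.663 to 0.980). Slc25a24 had 3.42 FPKM in D3BKO and 1.86 FPKM in D3BWT, from 115 and 60 counts, a ratio of 1.84 (1.34 to 2.56). Its share of the summed FPKM of the 3 carriers was 4.73% in D3BKO and 2.44% in D3BWT, so it was a minor form in both. The Slc25a24 value lost its 1.5-fold call with a pseudocount of 5, where its log2 ratio was 0.30, and when the length and GC trends were removed, where it was 0.57.

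**Figure D3:**
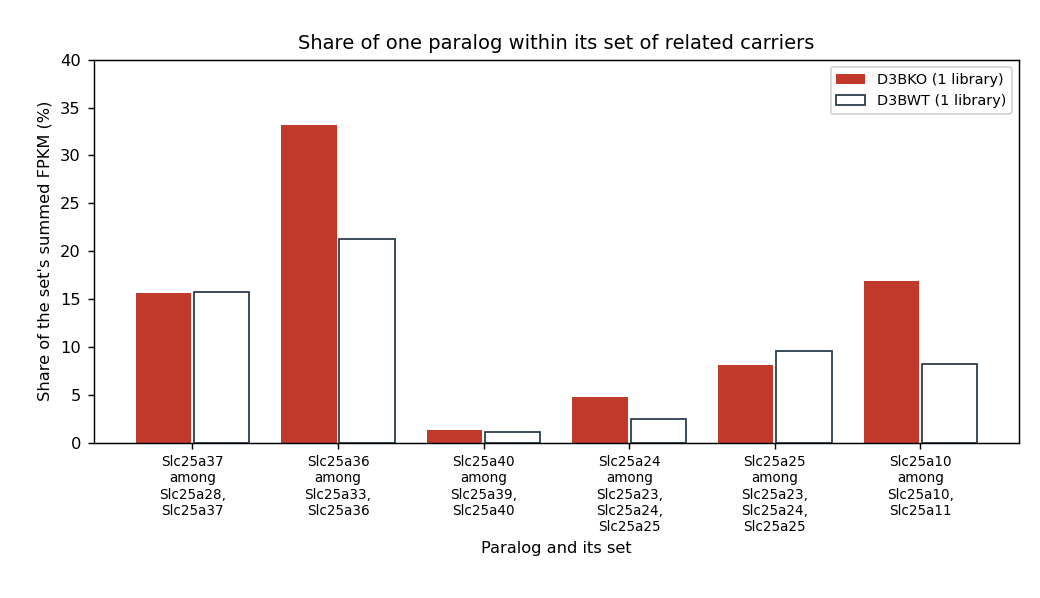
Share of the named paralog in the summed FPKM of its set, in percent from 0, with D3BKO as filled and D3BWT as open bars, 1 library each. The shares of Slc25a36 (33.2% in D3BKO, 21.3% in D3BWT), Slc25a10 (16.8% in D3BKO, 8.24% in D3BWT) and Slc25a24 (4.73% in D3BKO, 2.44% in D3BWT) are higher in D3BKO. That of Slc25a25 is lower (8.13% in D3BKO, 9.58% in D3BWT), and those of Slc25a37 and Slc25a40 are nearly equal.

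Amino acid carriers had log2 ratios below 0 in 5 of 6 members, against 53.8% of all genes. None was past the 1.5-fold rule, and 1 member had a counting interval that excluded 1. That member was Slc25a22, the glutamate carrier, with 37.1 FPKM in D3BKO and 51.1 FPKM in D3BWT, a ratio of 0.726 (0.664 to 0.787). Its paralog Slc25a18 had 0 counts in D3BKO and 1 count in D3BWT, so nearly all glutamate carrier transcript was Slc25a22. Slc25a44, which imports branched-chain amino acids into brown fat mitochondria, had 30.5 FPKM in D3BKO and 28.7 FPKM in D3BWT, a ratio of 1.06 (0.971 to 1.16), and was the member of the group above 0. Slc25a38, the glycine carrier that feeds heme synthesis, had 9.28 FPKM in D3BKO and 11.6 FPKM in D3BWT, with an interval of 0.636 to 1.003. The ornithine carrier Slc25a15 had 6.5 FPKM in D3BKO and 7.37 FPKM in D3BWT. The basic amino acid carrier Slc25a29 had 1.61 FPKM in D3BKO and 1.78 FPKM in D3BWT, also without a detectable difference.

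The aspartate-glutamate carriers, which with Slc25a11 form the malate-aspartate shuttle, were scarce in this tissue. Slc25a12 had 1.52 FPKM in D3BKO and 1.69 FPKM in D3BWT, and Slc25a13 had 0.23 FPKM in D3BKO and 0.10 FPKM in D3BWT, from 7 and 3 counts. The enzymes of the same shuttle were present at unlike levels. Mdh2 had 1461 FPKM in D3BKO and 1481 FPKM in D3BWT, and Mdh1 had 515 FPKM in D3BKO and 528 FPKM in D3BWT. The transaminases were far lower, with Got1 at 14.8 FPKM in D3BKO and 17.1 FPKM in D3BWT. Got2 was at 15.1 FPKM in D3BKO and 14.1 FPKM in D3BWT. The glycerol phosphate shuttle, which carries reducing power without a carrier of this family, had Gpd1 at 3566 FPKM in D3BKO and 2955 FPKM in D3BWT, a ratio of 1.21 (1.19 to 1.22), and Gpd2 at 227 FPKM in D3BKO and 189 FPKM in D3BWT, a ratio of 1.21 (1.17 to 1.24). None of the 6 shuttle enzymes met the 1.5-fold rule.

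Iron and glutathione carriers differed little between the libraries. The mitoferrins Slc25a28 and Slc25a37 bring iron to heme and iron-sulfur cluster synthesis, the second mainly in red cell precursors. Slc25a28 had 21.4 FPKM in D3BKO and 21.5 FPKM in D3BWT, a ratio of 0.995 (0.848 to 1.16), and Slc25a37 had 3.95 FPKM in D3BKO and 4.02 FPKM in D3BWT, a ratio of 0.983 (0.787 to 1.23). Slc25a37 made up 15.6% of their summed FPKM in D3BKO and 15.8% in D3BWT. Erythroid markers were likewise close, with 7413 FPKM summed over 4 genes in D3BKO and 7563 FPKM in D3BWT, and the red cell membrane genes Slc4a1 and Epb42 were under 1 FPKM in both. Among 8 genes of mitochondrial iron use, 1 was lower and 0 higher by the 1.5-fold rule, against 3.41% and 4.35% of all genes. The lower one was Tfrc, the transferrin receptor that takes iron into the cell. It had 10.8 FPKM in D3BKO and 19.0 FPKM in D3BWT, a ratio of 0.569 (0.509 to 0.633). Of the 8 genes 4 lay below 0, against 53.8% of all genes, and the median log2 ratio was 0.001.

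Slc25a39 and Slc25a40 import glutathione. Slc25a39 had 276 FPKM in D3BKO and 294 FPKM in D3BWT, a ratio of 0.936 (0.898 to 0.975). Its log2 ratio of -0.09 became -0.007 with equal FPKM totals and 0.009 with the length and GC trends removed. Slc25a40 had 3.54 FPKM in D3BKO and 3.35 FPKM in D3BWT, so that it was 1.27% of the pair's summed FPKM in D3BKO and 1.13% in D3BWT. None of 8 genes of glutathione synthesis and reduction met the 1.5-fold rule, and their median log2 ratio was -0.03. Gclc, which catalyses the first step of glutathione synthesis, had a ratio of 1.30 (1.08 to 1.58).

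The carriers of the outer membrane or with no settled substrate in the list used here were all above 0, 4 of 4, with a median log2 ratio of 0.31. Over all genes 53.8% lay below 0, and the group is too small to be set apart from them. Slc25a45 had 2.90 FPKM in D3BKO and 1.33 FPKM in D3BWT, from 52 and 23 counts, a ratio of 2.18 (1.31 to 3.72), the widest interval of the 4 members past the rule. It lost its 1.5-fold call with a pseudocount of 5, where its log2 ratio was 0.32. Slc25a48, linked to choline import, had 13.5 FPKM in D3BKO and 10.6 FPKM in D3BWT, a ratio of 1.28 (1.03 to 1.59). Slc25a46, an outer membrane protein that affects mitochondrial shape, had 32.3 FPKM in D3BKO and 28.6 FPKM in D3BWT, a ratio of 1.13 (1.04 to 1.22). Slc25a47, known mainly from liver, had 2.10 FPKM in D3BKO and 1.53 FPKM in D3BWT, with an interval of 0.785 to 2.46 that included 1.

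Several listed members stayed under 1 FPKM in both libraries. Slc25a27 with 0.72 FPKM in D3BKO and 0.86 FPKM in D3BWT was just below the limit, and Slc25a12 was just above it. The others were Slc25a53 with 20 counts in D3BKO and 12 in D3BWT, and Slc25a13, Slc25a2, Slc25a31 and Slc25a18 with at most 7 counts in either library. Slc25a2 is the second ornithine carrier and Slc25a31 the testis form of the adenine nucleotide translocase. Slc25a21, Slc25a41, Slc25a43 and Slc25a54 had no line in either library. A count of 0 allows up to 3 counts, which are 0.298 counts per 1e6 (CPM) in D3BKO and 0.310 CPM in D3BWT.

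Other transporters of the mitochondrial membranes, outside the Slc25a symbols, gave a similar picture. Of 22 genes, 1 met the 1.5-fold rule in the higher direction and 0 in the lower, against 4.35% and 3.41% of all genes. Below 0 lay 13 of the 22, against 53.8% of all genes, and the median log2 ratio was -0.07. The higher one was Sfxn3, a sideroflexin, with 3.83 FPKM in D3BKO and 2.08 FPKM in D3BWT, a ratio of 1.84 (1.33 to 2.56). Mpc1 and Mpc2 form the pyruvate carrier together. Mpc1 had 1143 FPKM in D3BKO and 1026 FPKM in D3BWT, a ratio of 1.11 (1.08 to 1.14), and Mpc2 had 641 FPKM in D3BKO and 708 FPKM in D3BWT, a ratio of 0.905 (0.870 to 0.939). The members of the carrier family left out by the rule outweighed those described, with 5361 FPKM summed over Slc25a4, Slc25a5, Ucp1, Ucp2 and Ucp3 in D3BKO and 6072 FPKM in D3BWT. None of these 5 genes met the 1.5-fold rule.

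Markers of several cell types differed between the libraries beside the carriers. By the 1.5-fold rule 4.35% of all genes were higher and 3.41% lower, and 53.8% had a log2 ratio below 0. In bulk tissue a change in the number of cells of a type and a change of RNA per cell cannot be told apart. Of 11 brown adipocyte markers 9 lay below 0, 2 were lower and 1 was higher by the 1.5-fold rule, and their summed level was 14686.5 FPKM in D3BKO and 18806.5 FPKM in D3BWT. Of 9 white adipocyte markers 8 were listed and 6 were higher, with 972 FPKM summed in D3BKO and 554 FPKM in D3BWT. Of 10 macrophage markers 5 were higher, with 531 FPKM in D3BKO and 358 FPKM in D3BWT, and of 8 fibroblast and preadipocyte markers 3 were higher, with 348 FPKM in D3BKO and 257 FPKM in D3BWT. Of 8 endothelial markers 4 were lower, with 184 FPKM in D3BKO and 284 FPKM in D3BWT. Muscle was scarce: of 12 markers 2 reached 1 FPKM, with 13.1 FPKM summed in D3BKO and 10.5 FPKM in D3BWT, and Ckm and Myh7 had no line. Of these Acta1 was higher, with 2.71 FPKM in D3BKO and 1.38 FPKM in D3BWT. Hepatocyte markers were low too, with 19.0 FPKM in D3BKO, summed over the 4 of 6 genes that reached 1 FPKM in 1 library or both, and 27.4 FPKM in D3BWT. Among them Alb was lower, with 10.4 FPKM in D3BKO and 17.3 FPKM in D3BWT. The part of these cell types in the differences of Slc25a10, Slc25a24, Slc25a45, Slc25a34 and Slc25a1 was not tested.

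**Figure D4:**
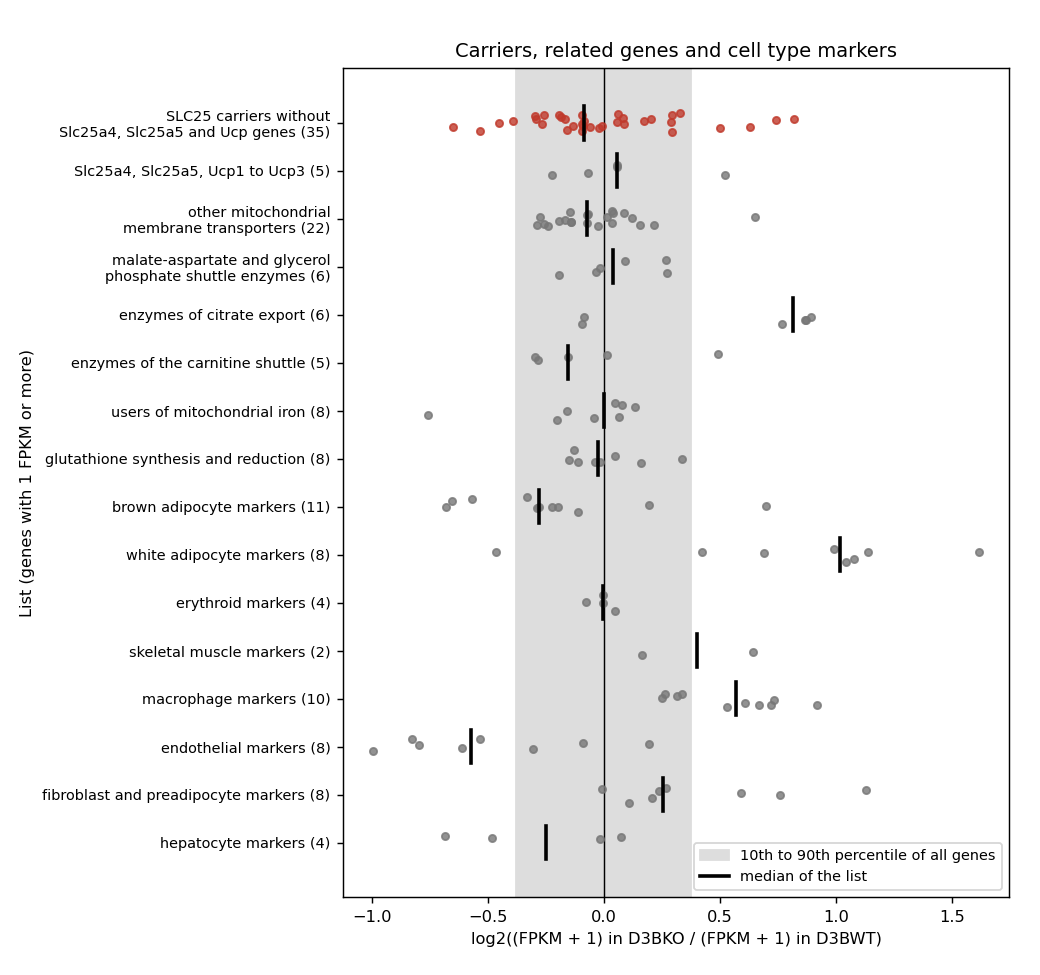
Log2 ratio of (FPKM + 1) in D3BKO over D3BWT for every gene with 1 FPKM or more in each list, 1 point per gene with its height spread for display, the list median as a black line and the number of genes in brackets. The 35 carriers centre at -0.09 inside the grey band of all genes, while the medians of the white adipocyte, macrophage, skeletal muscle (2 genes) and citrate export lists lie above the band and that of the endothelial list below it.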

How the data were processed

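RNA was measured in 1 brown adipose tissue library per genotype, made from polyadenylated RNA per the labels' protocols. The authors deposited for each gene an expected count, an estimate in which reads matching several genes are divided among them, an FPKM value and a transcript length, per the file headers. RSEM (no version) and the mouse build mm9 are named in the submitters' processing notes, and no source used here gives an aligner. Entrez identifiers were matched to symbols in a RefSeq table of GRCm38.p6 (16134 of 16174 genes), as were promoters, so no file coordinate is printed. A gene not listed in a library was set to 0.

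Groups follow the genotype labels. With 1 library per group no test was run. The log2 ratio is that of (FPKM + 1), D3BKO over D3BWT, over the 11746 genes that reached 1 FPKM in 1 library or both, and ratios in the text are of deposited FPKM. Expected counts were rounded, and a gene's share of D3BKO in the sum of both counts was given its exact Clopper-Pearson interval, which was turned into a ratio with the library totals. Intervals cover counting error only. They treat counts as independent molecules, which PCR copies are not, so they can be too narrow. The calculation was tested on simulated counts that vary by counting error only. That test therefore says nothing on PCR copies, divided reads or differences between mice. A count further than 0.05 from whole is said to hold divided reads. Exon overlaps came from GENCODE M21. The rule was to name all 35 members with their values, and 1 of them is not reported here by name or in the plots by gene, though it stays in the counts and sums. The members and lists were chosen with earlier results of these data known. Alternatives were pseudocounts of 0.1 and 5, no filter, a mean of at least 5 FPKM, CPM, a median log2 ratio set to 0, equal FPKM totals, a log2 line of 0.32 and a fold of 2, and removal of the length trend by lowess. Removal of the trend with length and GC content together was added after seeing the data. Calculations used Python 3.11.15, scipy 1.17.1 and statsmodels 0.14.6.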

Additional observations from a re-analysis of the deposited data

How the results depend on the processing

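The 3 members called higher became 1 with a pseudocount of 5 and 1 with a mean of at least 5 FPKM, both leaving Slc25a10, and 4 with equal FPKM totals, when Slc25a1 was added. With the length and GC trend removed, chosen after seeing the data, the number was again 3, with Slc25a1 in place of Slc25a24. The member called lower, Slc25a34, was lost with equal FPKM totals and with the length and GC trend removed (0 each). At a log2 line of 0.32 there were 5 higher and 4 lower members, where all genes had 10.3% and 11.7%, and at a fold of 2 there were 0 and 0, where all genes had 0.902% and 0.673%. The median log2 ratio of the members lay between -0.09 and 0.00 under all alternatives. The ratio of summed FPKM was 0.955, 1.015 with equal FPKM totals and 0.973 without Slc25a20. The FPKM totals themselves had a D3BKO over D3BWT ratio of 0.941. Counts in place of FPKM, which are not per length, moved the share of Slc25a37 to 33.5% in D3BKO and 33.7% in D3BWT, of Slc25a36 to 45.1% in D3BKO and 30.9% in D3BWT, of Slc25a40 to 2.13% in D3BKO and 1.89% in D3BWT, and of Slc25a10 to 30.6% in D3BKO and 16.3% in D3BWT. Of the 35 members 28 kept their sign under the 9 alternatives or those that gave a value. The other 7 were Slc25a17, Slc25a23, Slc25a28, Slc25a29, Slc25a37, Slc25a39 and Slc25a51, with log2 ratios of at most 0.095 in size. Of 306 member values under the alternatives, 12 differed from the main value by more than the counting interval. Low counts limit Slc25a14, Slc25a29, Slc25a12, Slc25a45 and Slc25a47 most. No paired analysis was possible because each genotype has 1 library.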
